A study of Mus musculus with 5 samples.

Results

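Secretoglobins are small proteins that airway epithelium secretes into the fluid lining the airways. The 4 genes described here are Scgb1a1, Scgb3a1, Scgb3a2 and Scgb1c1, chosen by name as 4 of the 23183 gene symbols counted in each library. They were followed over 5 groups of female wild-type BALB/c mice, with 1 library of whole-lung RNA in each group. The control group carries no named exposure. The PM10 group was given PM10, inhalable airborne particulate matter, into the nose 4 times over 2 weeks. The PM10/OVA group was given PM10 and ovalbumin, a protein allergen that was injected into the peritoneum and later given by nose. The PM10/OVA/CPX group had both, with a chitinase-1 inhibitor (CPX) injected 6 times over 3 weeks. The PM10/OVA/Dex group had both, with dexamethasone, a synthetic glucocorticoid, injected 3 times in the last week. Mice were killed 2 days after their final challenge. The sources used here do not give doses, age, or the number of animals behind each library.

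Club cells are the dome-shaped secretory cells of the conducting airways. They detoxify inhaled chemicals with cytochrome P450 enzymes, and they can divide to replace other airway cells. Scgb1a1 encodes the club cell secretory protein, also called uteroglobin, which binds small hydrophobic molecules and is the usual marker of the cell type. Scgb3a1 and Scgb3a2 encode related secreted proteins of airway epithelium, of which Scgb3a1 is known chiefly from the larger airways and Scgb3a2 from bronchi and bronchioles. Scgb1c1 is a further member of the family, known mainly from nasal tissue. The transcription factor NKX2-1 is a known activator of secretoglobin genes in the lung.

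On the GRCm38 build with GENCODE M21 annotation, all 4 are protein-coding genes on different chromosomes. Scgb1a1 (ENSMUSG00000024653.2) lies on the minus strand of chromosome 19 from 9083636 to 9087958 and has 1 annotated transcript of 476 bases in 3 exons. Scgb3a1 (ENSMUSG00000064057.12) lies on the plus strand of chromosome 11 from 49663610 to 49665118. Scgb1c1 (ENSMUSG00000038801.6) lies on the plus strand of chromosome 7 from 140845547 to 140846769. The coding sequence of Scgb1a1 is shown because its reads outnumbered those of the other 3 genes together in every library. It is 291 bases long, joined from GENCODE exons within chr19:9083764-9087901 on the minus strand, with the start and stop codons in capitals.
Scgb1a1: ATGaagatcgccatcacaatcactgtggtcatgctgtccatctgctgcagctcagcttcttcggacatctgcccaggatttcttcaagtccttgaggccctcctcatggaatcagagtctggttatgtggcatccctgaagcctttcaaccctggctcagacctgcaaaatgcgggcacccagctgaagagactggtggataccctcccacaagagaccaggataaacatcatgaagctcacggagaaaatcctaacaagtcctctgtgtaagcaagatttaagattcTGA

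The promoter of Scgb3a1 is shown because this gene had the widest range of levels of the 4. It is the 250 bases before the RefSeq start, chr11:49663345-49663594 on the plus strand of GRCm38.p6. Capitals mark the overlapping matches to 2 NKX2-1 motifs, CTCAAG on the reverse strand and CACTTG.
Scgb3a1: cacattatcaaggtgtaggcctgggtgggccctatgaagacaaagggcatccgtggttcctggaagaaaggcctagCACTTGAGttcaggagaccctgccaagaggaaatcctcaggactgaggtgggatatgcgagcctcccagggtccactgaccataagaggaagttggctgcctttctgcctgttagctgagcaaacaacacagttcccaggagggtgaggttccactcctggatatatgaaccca
RefSeq promoters were matched for 2 of the 4 genes, Scgb3a1 and Scgb1c1. CTCAAG, searched on both strands, was in 13.3% of 32851 promoters of this length, and it was in both matched promoters. CACTTG was in 11.6% of promoters. No match to the FOXA motifs TGTTTAC and TATTTAC, the C/EBP motif TTNNGNAA or the glucocorticoid receptor motif ACANNNTGT was found in either window. These motifs were in 3.17%, 2.73%, 36.8% and 5.84% of promoters.

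Library totals ran from 11993222 to 16929068 counts. Levels are CPM, counts relative to library size, scaled between libraries by the trimmed mean of M-values, and a gene was called measured where it averaged 1 CPM or more, which held for 14305 genes and for all 4 secretoglobins. Folds are ratios of CPM, with 95% exact intervals that cover counting error only. With 1 library in each group, no difference has a replicate check and no test between conditions was made. Markers of alveolar type 2 and type 1 cells, which a lung must hold, were at summed levels of 22726 to 31878 CPM over 12 measured genes and 5572 to 6578 CPM over 8. RNA of bordering tissue differed between libraries: 11 heart muscle markers summed to 3531 CPM in control, 724 after PM10, 312 after PM10/OVA, 273 with the inhibitor and 695 with dexamethasone. The 10 fat markers summed to 783, 179, 135, 122 and 294 CPM in those libraries, and 7 measured cartilage markers to 91.7, 18.6, 2.46, 2.48 and 10.6 CPM. The 9 measured leukocyte markers summed to 548, 1046, 1135, 1018 and 716 CPM. The part of these tissues and cells in the differences below was not tested.

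Scgb1a1 was among the most abundant transcripts of every lung. Its level was 20963 CPM in control and 14277 in PM10, then 19289 in PM10/OVA, 20501 with CPX added and 25101 with Dex added. The PM10 library was the lowest and the dexamethasone library the highest, and the range between them was 1.76-fold (1.75 to 1.77). This one gene took 2.15% of all counts in control, 1.43% in PM10 and 2.49% in PM10/OVA/Dex. By CPM it ranked first in 4 libraries and second in PM10, behind Lars2 at 18341 CPM. Neighbours in the order of levels differed beyond counting error, although control exceeded PM10/OVA/CPX by only 1.02-fold. With libraries scaled on general epithelial genes instead, PM10/OVA/CPX stood at 1.02 times control, so the order of these libraries depends on the scaling. In bulk tissue, fewer club cells and less of this RNA per cell cannot be told apart, and that holds for each gene below.

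Scgb3a1 had the widest range. It was at 360 CPM in the control lung, 166 after PM10, 244 after PM10/OVA, 438 with the inhibitor and 929 with dexamethasone. From PM10 to PM10/OVA/Dex the range was 5.60-fold (5.34 to 5.88), wider than that of 98.3% of measured genes, whose median range was 1.36-fold. Both libraries from mice given a drug stood above control, and both libraries from mice exposed without a drug stood below it. All 4 steps between neighbours in this order exceeded counting error, and the smallest was 1.22-fold.

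Scgb3a2 (ENSMUSG00000038791.14, plus strand of chromosome 18, 43764289 to 43767399) followed another order. It was at 603 CPM in control and 356 in PM10, then 317 in PM10/OVA, 264 with CPX added and 595 with Dex added. Control and PM10/OVA/Dex did not differ beyond counting error, with a ratio of 1.01 (0.983 to 1.04), and the other 3 libraries lay well below them. The lowest level was in the inhibitor library, 2.28-fold below control (2.19 to 2.37).

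Scgb1c1 was a low transcript, with 32 to 86 counts in a library. It was at 4.79 CPM in the control lung, 2.65 after PM10, 5.43 after PM10/OVA, 3.43 with the inhibitor and 6.22 with dexamethasone. No neighbours in the order differed beyond counting error, while the ends of the order, PM10/OVA/Dex and PM10, differed by 2.35-fold (1.53 to 3.67). Its locus overlaps 2 annotated antisense genes, of which C330022C24Rik is in the count tables with at most 1 count in a library. The sources used here do not say whether the counting used strand, so the level of Scgb1c1 is uncertain in that respect.

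**Figure D1:**
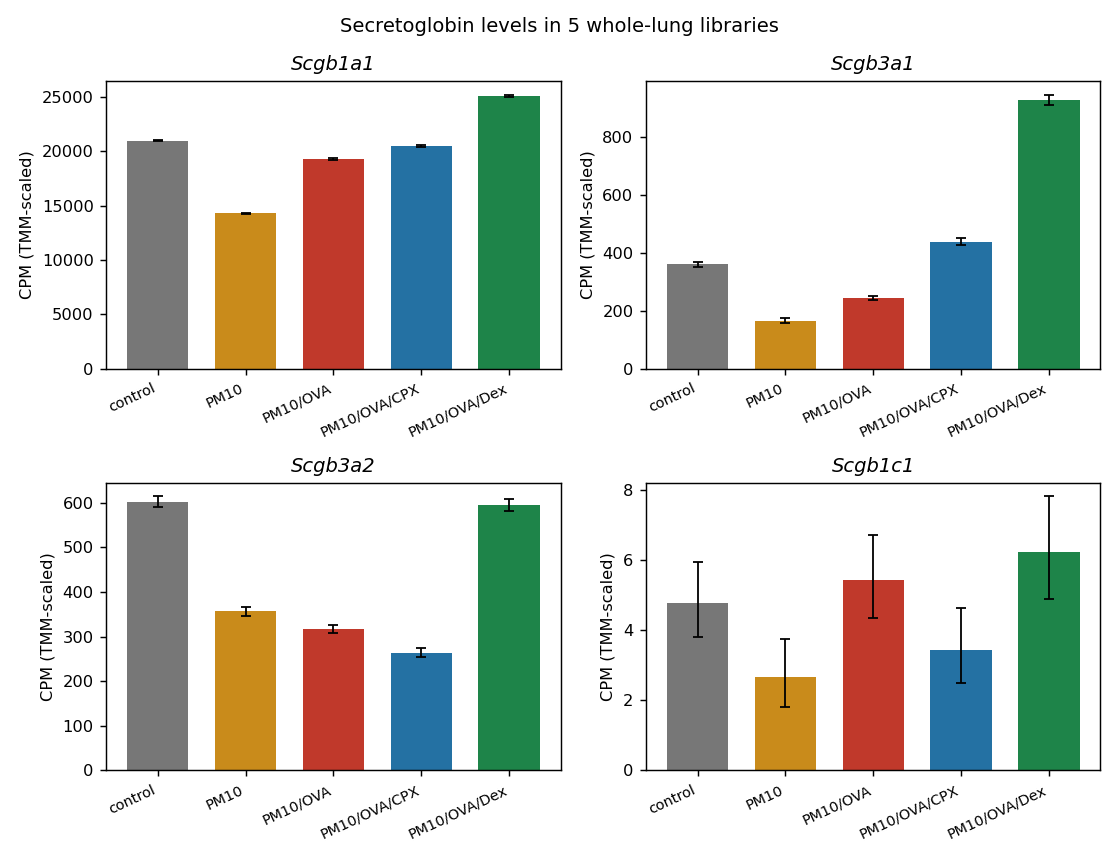
Level of each gene in CPM (bars, vertical axes from 0) in the 5 libraries, 1 bar per group, with error bars for the 95% counting interval. PM10 has the lowest bar for Scgb1a1, Scgb3a1 and Scgb1c1, while for Scgb3a2 the lowest is PM10/OVA/CPX at 264 CPM.

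Levels of different genes were compared per kilobase of annotated exon, on the scale of CPM per kilobase. Scgb1a1 was at 44040 in control and ranked first of the 22110 genes with a length in every library on this scale. Scgb3a2 was at 685 in control and Scgb3a1 at 602, and Scgb1c1 was at 10.5. The order of the middle pair in control depends on the transcript counted, since Scgb3a1 would be at 730 CPM per kilobase with its shortest transcript of 493 bases. In PM10/OVA/Dex, Scgb3a1 was at 1553 CPM per kilobase with its longest transcript, above the 1081 that Scgb3a2 reaches with its shortest.

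The comparison of PM10 with control addresses exposure to particles alone. All 4 secretoglobins had lower levels in PM10. Scgb3a1 was 2.17-fold lower and the only one past the 2-fold line on log2(CPM + 1), where 2.04% of measured genes were at least 2-fold lower and 3.7% higher. Scgb1c1 was 1.81-fold lower, Scgb3a2 1.69-fold and Scgb1a1 1.47-fold. On that log2 scale the median difference of the 4 genes was -0.71, against 0.00 over all measured genes. Markers of bordering tissue were lower in the same comparison, at least 2-fold in 11 of 11 heart, 9 of 10 fat and 6 of 7 cartilage genes, and 4 of 9 leukocyte genes were at least 2-fold higher. Their part in the lower secretoglobin levels was not tested.

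Adding ovalbumin to PM10 went with unequal differences. Against PM10 alone, Scgb1a1 was 1.35-fold higher in PM10/OVA (1.34 to 1.36), Scgb3a1 1.47-fold (1.40 to 1.56) and Scgb1c1 2.05-fold (1.35 to 3.17), while Scgb3a2 was 1.13-fold lower. On the log2(CPM + 1) scale 0 of the 4 passed the 2-fold line, where 0.692% of measured genes were higher and 1.27% lower. Against control, PM10/OVA held 1.90-fold less Scgb3a2 and 1.47-fold less Scgb3a1. Scgb1a1 was at 92.0% of its control level there, and the Scgb1c1 ratio of 1.13 had an interval that held 1 (0.829 to 1.55). In this comparison 0 of 4 passed the line, against 3.17% of measured genes higher and 2.73% lower.

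The inhibitor library separated the 3 abundant genes. Against PM10/OVA, PM10/OVA/CPX had 1.79-fold more Scgb3a1 (1.72 to 1.87), 1.06-fold more Scgb1a1 (1.06 to 1.07) and 1.20-fold less Scgb3a2. The log2 difference of Scgb3a1, 0.84, ranked 140 of 14305 genes from the highest. Scgb1c1 was 1.58-fold lower, with a ratio of 0.633 (0.428 to 0.923). None of the 4 passed the 2-fold line, against 0.636% of measured genes higher and 0.762% lower.

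With dexamethasone all 4 genes had higher levels than in PM10/OVA without it. Scgb3a1 was 3.80-fold higher (3.67 to 3.95), and its log2 difference of 1.92 ranked 26 of 14305 from the highest. It was the 1 gene of 4 past the 2-fold line, where 1.2% of measured genes were higher and 1.6% lower. Scgb3a2 was 1.88-fold higher (1.81 to 1.95) and ranked 216, and Scgb1a1 was 1.30-fold higher (1.29 to 1.31). The Scgb1c1 interval held 1, at 1.15 (0.829 to 1.58). The median log2 difference of the 4 was 0.64, against -0.01 over all measured genes. Other markers differed in the same comparison. The leukocyte median was -0.56, and 3 of 9 genes were at least 2-fold lower. Heart, fat and cartilage genes had medians of 1.04, 1.51 and 1.01, with 6 of 11, 6 of 10 and 4 of 7 at least 2-fold higher. Their part in the higher secretoglobin levels was not tested.

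Set against each other, the libraries of the 2 drugs differed by over 2-fold in Scgb3a1 and Scgb3a2. Scgb3a2 was 2.25-fold higher with dexamethasone than with the inhibitor (2.16 to 2.35), and Scgb3a1 2.12-fold (2.05 to 2.19). These 2 of the 4 passed the 2-fold line, where 1.06% of measured genes were higher and 0.734% lower. With libraries scaled on general epithelial genes instead, the Scgb3a1 ratio was 1.99. Scgb1c1 was 1.81-fold higher with dexamethasone (1.23 to 2.70) and Scgb1a1 1.22-fold (1.22 to 1.23). Comparisons that share a library, such as these and the ones with PM10/OVA, are not independent of each other.

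**Figure D2:**
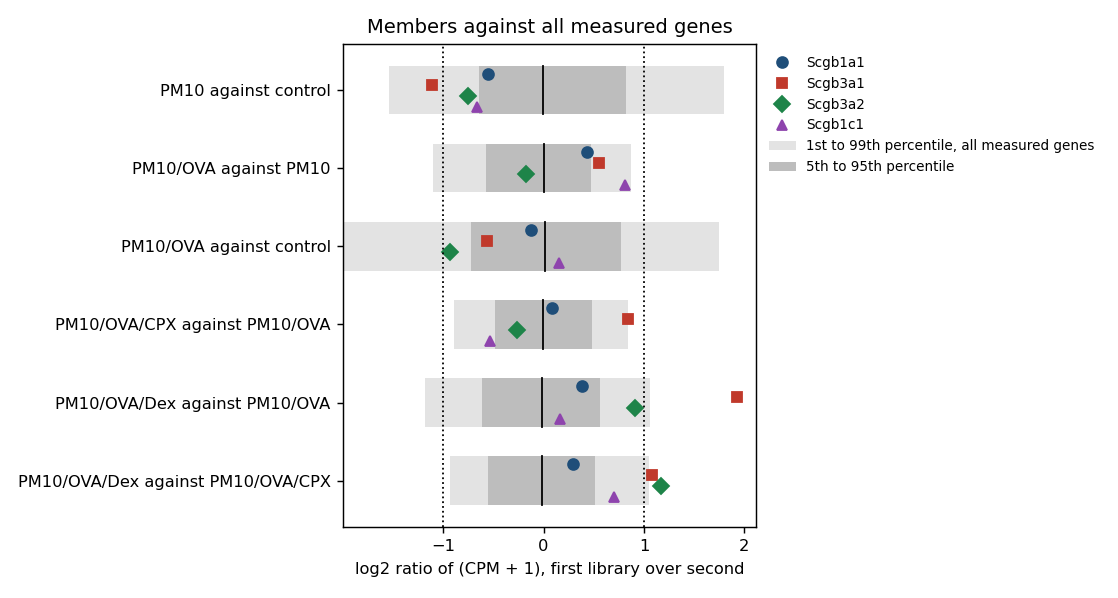
Log2 ratio of each gene on log2(CPM + 1) in 6 comparisons (points), over grey bars that span the 1st to 99th and the 5th to 95th percentile of all 14305 measured genes, with dotted lines at 2-fold. Scgb3a1 lies at 1.92 in PM10/OVA/Dex against PM10/OVA, and all 4 points lie left of 0 in PM10 against control.

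Ratios of reads within a library do not depend on how libraries are scaled. For every 100 Scgb1a1 reads there were 1.72 Scgb3a1 reads in control and 1.16 in PM10, then 1.27 in PM10/OVA, 2.14 with CPX added and 3.70 with Dex added. The same ratio for Scgb3a2 was 2.88 in the control lung, 2.50 after PM10, 1.64 after PM10/OVA, 1.29 with the inhibitor and 2.37 with dexamethasone. The inhibitor library thus had the lowest share of Scgb3a2 and the second highest of Scgb3a1. Per 100 Scgb3a2 reads there were 59.7 Scgb3a1 reads in control and 46.5 in PM10, then 77.1 in PM10/OVA, 166 with CPX added and 156 with Dex added. Scgb3a1 outnumbered Scgb3a2 only in the 2 libraries from mice given a drug. Scgb1a1 made up 94.3% to 97.1% of the reads of the 4 genes.

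**Figure D3:**
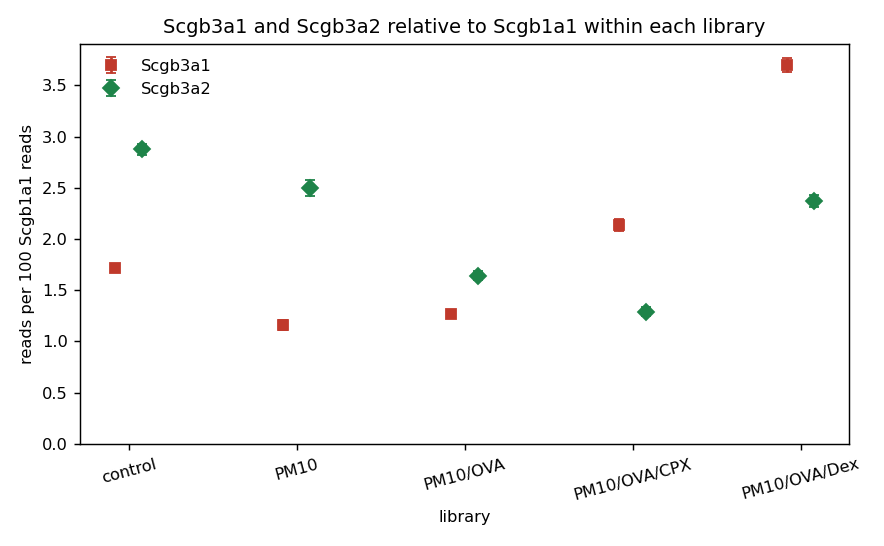
Reads of Scgb3a1 and of Scgb3a2 per 100 reads of Scgb1a1 (vertical axes) in each of the 5 libraries, with 95% counting intervals. Scgb3a1 is highest in PM10/OVA/Dex at 3.70, and Scgb3a2 is lowest in PM10/OVA/CPX at 1.29.

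Other club cell genes were taken from a list of 20, of which 19 were measured. In PM10 against control 4 were at least 2-fold lower, Cyp2f2, Cyp2a5, Lypd2 and Chad, and 0 were higher, with a median log2 difference of -0.44; over all measured genes 2.04% were lower and 3.7% higher. Cyp2f2, a P450 enzyme that activates inhaled naphthalene, was at 2704 CPM in the control lung, 1346 after PM10, 1297 after PM10/OVA, 1049 with the inhibitor and 1997 with dexamethasone. Its lowest level was in the inhibitor library, as for Scgb3a2, and 10 of the 19 genes were lowest there. Another 6 were lowest in PM10 and 3 in PM10/OVA. Control held the highest level of 11 of the 19, and PM10/OVA/Dex of 5. The same counts over all measured genes were not made. The carbonyl reductase gene Cbr2 was at 3527, 2478, 2334, 2512 and 3329 CPM over the libraries from control to dexamethasone. Aldh1a1, an aldehyde dehydrogenase, was highest in PM10/OVA/Dex at 1146 CPM, as Scgb1a1 and Scgb3a1 were, and lowest in PM10/OVA at 764 CPM.

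In PM10/OVA/CPX against PM10/OVA 2 of the 19 were at least 2-fold higher, Chad and Lypd2, and 2 were lower, Cyp2a5 and Hp, against 0.636% and 0.762% of all measured genes. In PM10/OVA/Dex against PM10/OVA 4 were higher, among them Cyp2a5, Lypd2 and Chad, and 17 of 19 lay above 0, with a median of 0.47. Of all measured genes 1.2% were higher and 1.6% lower there. Lypd2 was at 28.9 CPM in control and 11.1 in PM10, then 13.6 in PM10/OVA, 35.5 with CPX added and 32.0 with Dex added, which is above control in the 2 drug libraries, as for Scgb3a1. Cyp2a5 was at 297 CPM in control and between 10.6 and 76.7 CPM elsewhere, lowest with the inhibitor, as for Scgb3a2. The geometric mean of the list relative to control was 0.628 after PM10, 0.648 after PM10/OVA, 0.613 with the inhibitor and 0.919 with dexamethasone.

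**Figure D4:**
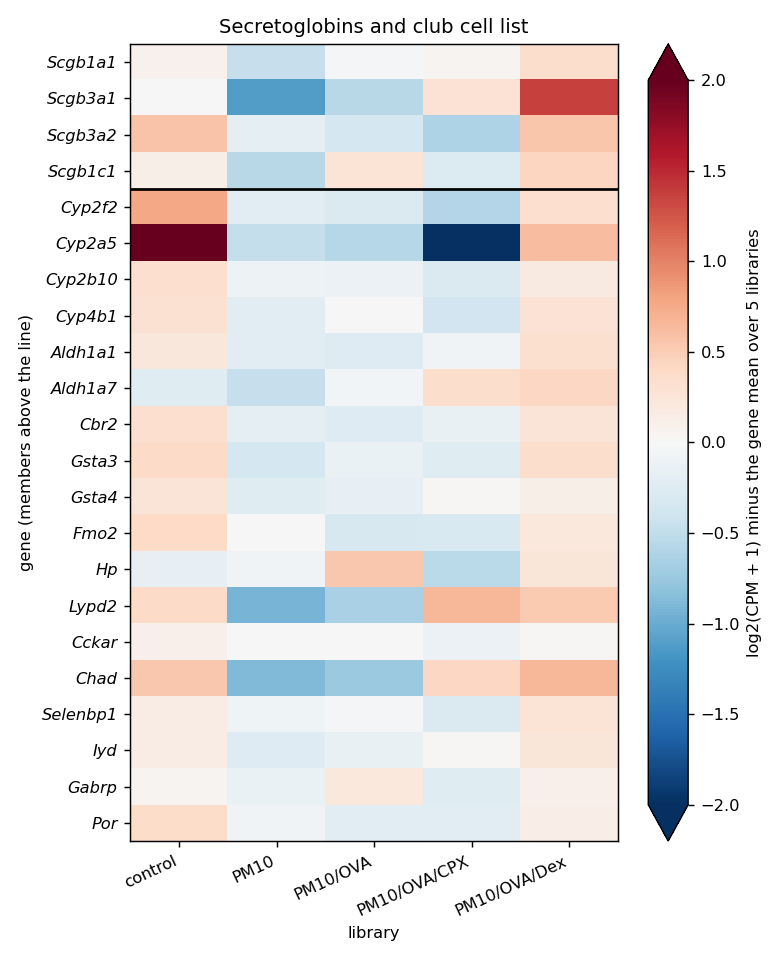
Log2(CPM + 1) of each gene minus its own mean over the 5 libraries (colour, limited to 2 either way), with the 4 secretoglobins above the line and 18 of the 19 measured club cell genes below it. Cyp2a5 and Cyp2f2 are lowest in PM10/OVA/CPX, while Scgb3a1 is highest in PM10/OVA/Dex.

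Expressed per unit of that club cell list, Scgb1a1 was at 1.09 times its control level after PM10, 1.42 after PM10/OVA, 1.59 with the inhibitor and 1.30 with dexamethasone. Scgb3a2 stood at 0.942, 0.811, 0.715 and 1.07 on the same scale. Scgb3a1 stood at 0.733, 1.05, 1.99 and 2.81. Relative to the geometric mean of the list, then, the PM10 library was low in Scgb3a1 and not in Scgb1a1. Cyp2a5, at 0.12 of control after PM10 and 0.036 with the inhibitor, lowers that mean. In PM10 against control the list had a median log2 difference of -0.44. Scgb1a1 lay somewhat below that median at -0.55, and Scgb3a1 further below at -1.11. The 16 measured markers of general epithelium, such as keratins and junction proteins, had a geometric mean within 0.956 to 1.02 of control. In each of the 6 comparisons 0 of 16 passed the 2-fold line. Of all measured genes 0.636% to 3.7% were higher and 0.734% to 2.73% lower in those comparisons, so 0 of 16 is near that share.

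Of 18 measured transcription factors of airway epithelium, 0 passed the 2-fold line in PM10 against control, where 3.7% of measured genes were higher and 2.04% lower, or in PM10/OVA/Dex against PM10/OVA, where 1.2% were higher and 1.6% lower. Nkx2-1, named here for its known role at these genes, was at 119 CPM in the control lung, 133 after PM10, 120 after PM10/OVA, 115 with the inhibitor and 136 with dexamethasone. Cebpa, a factor of mature club and alveolar cells, was at 173, 166, 177, 164 and 217 CPM. The related genes Cebpb, at 99.6, 168, 169, 134 and 181 CPM, and Cebpd, at 102, 174, 152, 103 and 183 CPM, were higher in PM10 than in control. Of the 18 factors 7 were higher in that comparison and 11 lower. Spdef, a driver of goblet cell differentiation, was at 1.27, 1.82, 3.78, 8.14 and 6.90 CPM and was the 1 factor of 18 at least 2-fold higher in PM10/OVA than in control, a share near the 3.17% of all measured genes. The libraries highest in Spdef were the same 2 that were highest in Scgb3a1, but in the other order, with the inhibitor above dexamethasone for Spdef. In PM10/OVA, Spdef was above control while Scgb3a1 was below it.

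Notch signalling directs airway progenitors to the secretory rather than the ciliated fate. Of 14 measured pathway genes, 2 passed the 2-fold line upwards in the dexamethasone library against PM10/OVA, the ligand gene Dll1 (2.10-fold) and the target gene Hes1 (2.17-fold), where 1.2% of all measured genes were higher and 1.6% lower. Hes1 was at 48.6 CPM in control and 52.3 in PM10, then 37.9 in PM10/OVA, 55.6 with CPX added and 82.2 with Dex added. In the dexamethasone comparison 13 of the 14 lay above 0, with a median of 0.39, against -0.01 over all measured genes. Whole-lung RNA does not show which cells these levels came from, in the airway or elsewhere. None passed the line in PM10 against control, where 3.7% of measured genes were higher and 2.04% lower.

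Proteins that bind secretoglobins, and phospholipases A2, only some of which uteroglobin is known to inhibit, made a list of 10 with 8 measured. Marco, a scavenger receptor of macrophages that binds SCGB3A2, was at 2.02 CPM in the control lung, 23.8 after PM10, 20.3 after PM10/OVA, 7.11 with the inhibitor and 32.6 with dexamethasone. It was lowest of the 4 exposed libraries where Scgb3a2 was lowest, and lowest of all in control, where Scgb3a2 was highest. Lrp2, the endocytic receptor megalin, was at 59.8, 66.5, 83.1, 50.9 and 43.3 CPM, highest in PM10/OVA and lowest in PM10/OVA/Dex. Pla2g7, a secreted phospholipase, was at 25.3 CPM in control and between 49.2 and 67.6 CPM in the other libraries.

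Markers of neighbouring airway cell types moved with the secretoglobins in part. The 16 measured mucous cell genes had a geometric mean relative to control of 1.29 after PM10, 2.83 after PM10/OVA, 6.29 with the inhibitor and 3.76 with dexamethasone. Muc5ac, the inducible airway mucin, was at 4.09, 11.0, 30.6, 231 and 92.9 CPM from control to PM10/OVA/Dex. Clca1, a secreted protein of goblet cells, was at 1.61, 7.12, 313, 5154 and 1633 CPM. Muc5b, a mucin that club cells also make, was at 140, 131, 169, 359 and 277 CPM, so that both drug libraries were its highest, as for Scgb3a1, but with the inhibitor above dexamethasone. Other genes of the list were lower with dexamethasone than in PM10/OVA. Slc26a4, an anion exchanger, was at 90.7 CPM in PM10/OVA and 31.4 with dexamethasone, Agr2 at 26.1 and 9.17, and the membrane mucin gene Muc1 at 230 and 191. Of the 16, 5 were at least 2-fold higher in this comparison and 2 lower, and 6 lay below 0. Over all measured genes 1.2% were at least 2-fold higher there and 1.6% lower. The 17 measured ciliated cell genes had a geometric mean relative to control of 0.769, 0.696, 0.965 and 0.889 in the 4 exposed libraries. Their part in the secretoglobin differences was not tested.

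Genes of basal cells and large airways showed a wider contrast. Of 16 listed, 8 were measured, and their summed level was 1854 CPM in control and 269 in PM10, then 342 in PM10/OVA, 280 with CPX added and 1056 with Dex added. Bpifa1, a secreted protein of the nose and large airways, was at 1264, 74.5, 88.8, 60.1 and 464 CPM. Not every gene of the list followed that pattern. Reg3g was at 118, 80.5, 143, 116 and 244 CPM, above control in PM10/OVA and highest with dexamethasone. Lypd6b was at 3.23, 4.22, 3.22, 4.15 and 4.96 CPM. Krt5, the defining keratin of basal cells, was at 6.57, 1.16, 0.126, 0 and 3.45 CPM. These levels rest on few reads, with 114, 14, 2, 0 and 41 counts. In PM10 against control 5 of the 8 were at least 2-fold lower, and in PM10/OVA/Dex against PM10/OVA 5 of 8 were at least 2-fold higher, where 2.04% and 1.2% of all measured genes were. Dcpp1, Dcpp2, Dcpp3 and Serpinb3a were at 0 counts throughout. Control and PM10/OVA/Dex, the libraries with the highest sums for this list, were also those with most Scgb3a2. Bpifa1 was the largest part of the sum in control. How much large airway each lung sample held was not tested as a part of the Scgb3a2 difference. In PM10/OVA/CPX the list had a median log2 difference from PM10/OVA of -0.13, while Scgb3a1 was 1.79-fold higher. There 1 of the 8 was at least 2-fold higher (Aqp3), against 0.636% of all measured genes.

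**Figure D5:**
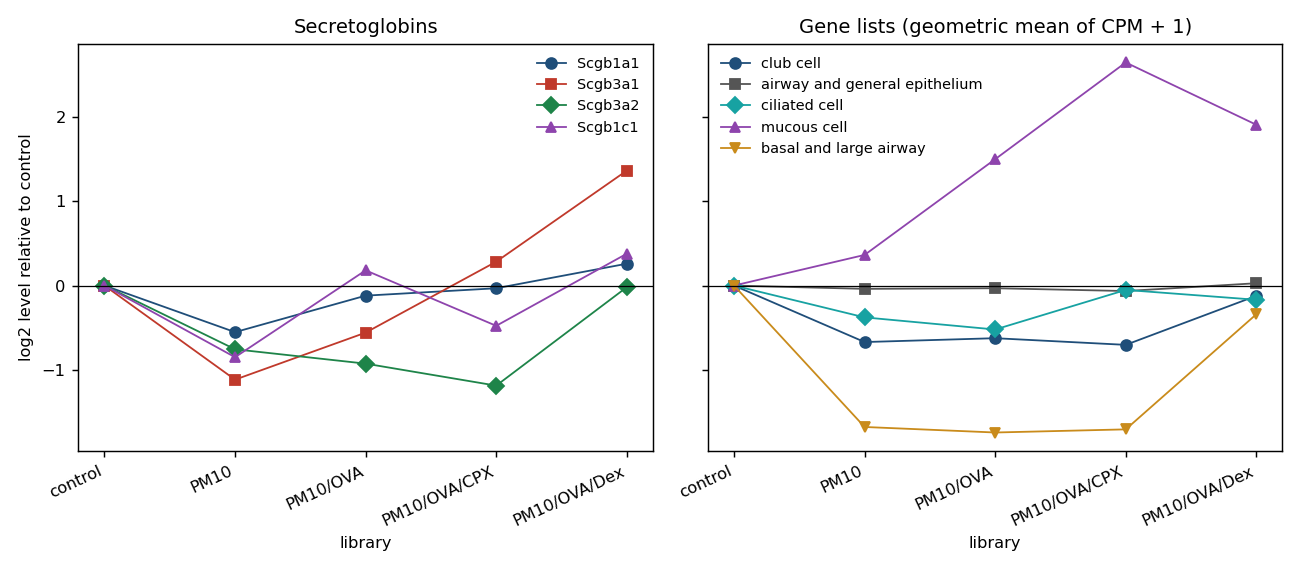
Log2 level relative to control in each exposed library for the 4 secretoglobins (left, ratio of CPM) and for 5 marker lists (right, geometric mean of CPM + 1), with lines that only join the points of 1 gene or list. The basal and large airway list and Scgb3a2 are both nearest their control level with dexamethasone, and the mucous list is highest with the inhibitor.

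Likeness of pattern was measured as the root-mean-square difference of log2(CPM + 1), each gene centred on its own mean over the 5 libraries, among 11649 genes that averaged 5 CPM or more. With 5 libraries this is a description of few points. Closest to Scgb1a1 were Hyal2, Rtp3, Aktip, Gipc3 and Zfp764, at 0.038 to 0.062. Closest to Scgb3a2 were Cd300lg, Faim2, Catip, Galnt15 and Sox5, at 0.074 to 0.13, and closest to Scgb1c1 were Nos3, Nrgn, Fstl3, Fgf11 and Itga2b, at 0.085 to 0.12. The nearest to Scgb3a1 was Bpifb1, which encodes a secreted protein of the airway lining and is also in the mucous cell list, at 0.22, and then Sox18, Cyp1a1, Rgs5 and Lrrc26 at 0.37 to 0.42. Bpifb1 was at 152 CPM in the control lung, 65.3 after PM10, 127 after PM10/OVA, 205 with the inhibitor and 308 with dexamethasone, which is the order of the Scgb3a1 levels. Among the 4 secretoglobins the closest pair was Scgb1a1 with Scgb1c1, at 0.20, and the farthest was Scgb3a1 with Scgb3a2, at 0.73.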

How the data were processed

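Per the labels' protocols, whole-lung RNA was extracted with Trizol and made into strand-keeping libraries (NEBNext Ultra II Directional). The aligner was TopHat and the build mm10, per the submitters' processing notes. The sources used here do not name the counting tool, annotation or strand setting. The authors deposited raw counts per gene symbol, 1 file per library, without normalization. No 30-base window of Scgb1a1, Scgb3a1 or Scgb3a2 transcripts occurs in another annotated gene, while 57 of 426 windows of Scgb1c1 are shared with C330022C24Rik.

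Counts were scaled with trimmed-mean-of-M-values factors of 0.989 to 1.02 (edgeR 4.0.16 in R 4.3.3). A single count was worth 0.0577 to 0.0841 CPM. Log2 differences were taken on log2(CPM + 1), and genes at least 2-fold apart on that scale, among those with a mean of at least 1 CPM, were counted. Folds are CPM ratios with exact (Clopper-Pearson conditional) 95% intervals, which cover counting error only. Counts of 0 were kept as 0, except that for Scgb1b2 and Scgb2b2 a ratio with a floor of 3 counts is also given. Each of the 5 groups has 1 library, so 6 comparisons were described without p-values. Scripts were tested on simulated data. The 4 genes and 15 gene lists were chosen with earlier results of these data known. Named are the 4 genes, other Scgb symbols with at least 10 counts in a library, the 3 highest and 3 widest-ranging genes of a list as they bear on the 4, and the 5 genes most like each. Names beyond that rule, Nkx2-1, Chad, Hp, Agr2 and Lars2 among them, were chosen after their values were seen. One gene of the club cell list is counted with the list but not reported by itself here. Lengths and positions come from GENCODE M21. Alternatives were DESeq2 1.42.0 size factors, library totals, scaling on general epithelial genes, pseudocounts of 0.25 and 5 CPM, and other filters on low counts.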

Additional observations from a re-analysis of the deposited data

How the results depend on the processing

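None of the 24 folds of the 4 genes in 6 comparisons crossed 1 under the 3 other scalings. PM10/OVA/CPX against control is not among the 6, and there the Scgb1a1 ratio did cross 1 with the epithelial scaling. DESeq2 size factors moved a fold by at most 1.0046 times, library totals by 1.04 and scaling on general epithelial genes by 1.07. The highest-to-lowest fold of Scgb1a1 was 1.74 with library totals and 1.68 with the epithelial scaling, beside 1.76 as reported, and that of Scgb3a2 was 2.18 with the epithelial scaling, beside 2.28. With a pseudocount of 5 CPM, 2 club cell genes instead of 4 were past 2-fold upwards in the dexamethasone library against PM10/OVA; the other 71 of 72 recounts of that list stayed within 1.5 times. No paired analysis was possible because each group has 1 library, and for the same reason no library could be left out. Depth limits Scgb1c1 most, at 32 to 86 counts.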

Other observations

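The count tables hold 24 Scgb symbols. Beside the 4 genes described above, 17 were at 0 counts in all 5 libraries and 3 had any count. Scgb1b2 had 6 counts in control, 24 in PM10/OVA/Dex and 0 in the other libraries. Its level with dexamethasone was 5.83-fold that of control (2.32 to 17.5), and its ratio to PM10/OVA, at 0 counts, had an exact lower limit of 8.02 and was 10.7 with 3 counts set there. Scgb2b2 had 21 counts in PM10/OVA/Dex, 3 in PM10/OVA, 1 in PM10 and 0 in control and PM10/OVA/CPX. Its level with dexamethasone was 9.33-fold that in PM10/OVA (2.79 to 48.9), and its ratio to control, at 0 counts, had an exact lower limit of 7.59 and was 10.2 with 3 counts set there. Both low genes were named for reaching 10 counts in a library, which they did only in PM10/OVA/Dex. That rule takes genes that are high in some library, but it does not set which library. Their peak in the library where Scgb3a1 was also highest rests on low counts without a replicate and is not used as support.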
